A study of Mus musculus with 6 samples.

Results

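Il24 and 9 other genes of secreted cytokines (Il6, Il11, Lif, Il1rn, Il33, Tslp, Csf1, Csf2 and Csf3) were followed in messenger RNA of the mouse mammary carcinoma line Mvt1. Of the 10 genes, 9 were found by their symbol among 14761 gene annotations of the deposited read tables, each with at least 1 read, and Il6 was not among them. The list was drawn up around the low level of Il24 in CD24+ cells, so the levels of Il24 are a description and carry no test. The other members were listed with results of these data already known.

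Mvt1 cells, a line of strain FVB/N, were stained for CD24 on the cell surface and sorted by flow cytometry into a CD24- and a CD24+ group, with no treatment and no difference in genotype given. Each group had 3 libraries, each from RNA of a different plate of adherent cells. No source names separate sorts, so the spread between libraries is that between plates and may be technical, and anything else that came to differ between the sorted groups cannot be told apart from CD24. The deposited counts summed to between 9046025 and 25692147 mapped reads per library, of which 71.8% to 74.3% were annotated to a gene, and CD24+ replicate 1 was the shallowest. Levels are given as CPM, counts scaled by library total with the TMM factors of edgeR. Adjusted p values are Benjamini-Hochberg values of the quasi-likelihood fit in edgeR over all genes. Cd24a, the gene of the sorted marker, had 12.1, 11.5 and 6.99 CPM in the CD24- libraries and 73.3, 85.5 and 72.5 CPM in the CD24+ libraries, so the labels and the RNA point the same way. Krt8 and Krt18, keratins of simple epithelium, were abundant in all 6 libraries, whereas the epithelial adhesion genes Cdh1 and Epcam had 2 and 6 reads in all libraries together.

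Cytokines are small proteins that cells release to act on receptors of neighbouring or distant cells. IL-24 belongs to the IL-10 family and binds receptor pairs that share the chain IL-20RB. The IL-6 family acts through the shared chain gp130, the product of Il6st, and most receptors of both families pass the signal on through Janus kinases and STAT transcription factors. The colony stimulating factors control the growth and survival of macrophages and granulocytes, and carcinoma cells are known to release several of them.

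The reads behind the main contrast are shown first. Each line gives a read of 47 bases in capitals, within up to 20 further coding bases on either side in lower case, written 5′ to 3′ along the messenger RNA. The 3 Il24 reads were the most counted coding reads of their exons, and the Csf1 and Lif reads are shown as their counterparts in a gene that was higher, and in a gene that was slightly lower, in CD24+ cells. Coordinates are those of mm9 in the deposited tables, the mRNA of Il24 and Csf1 runs along the minus strand and that of Lif along the plus strand, and the surrounding bases come from GENCODE transcripts.
Il24 exon 1: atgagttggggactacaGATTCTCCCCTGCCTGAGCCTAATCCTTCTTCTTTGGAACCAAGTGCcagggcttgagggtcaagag
Il24 exon 3: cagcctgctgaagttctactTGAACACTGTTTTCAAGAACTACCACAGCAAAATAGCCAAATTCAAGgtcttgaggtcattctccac
Il24 exon 5: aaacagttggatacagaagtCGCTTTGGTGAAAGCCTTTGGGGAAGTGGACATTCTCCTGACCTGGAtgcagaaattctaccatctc
Csf1 exon 6: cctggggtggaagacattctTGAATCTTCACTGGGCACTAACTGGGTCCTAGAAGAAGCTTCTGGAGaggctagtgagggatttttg
Lif exon 3: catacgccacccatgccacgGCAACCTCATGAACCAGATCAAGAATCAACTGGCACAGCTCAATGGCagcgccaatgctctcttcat

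The Il24 read of exon 1 lies at chr1:132782254-132782300, begins at coding base 18 and covers the start of the protein, where a secreted protein carries its signal peptide. It was counted 0, 2 and 6 times in CD24- replicates 1 to 3 and in no CD24+ library. These counts, like those of the other printed reads, join a read with its reverse complement at the same position. The read of exon 3, at chr1:132780476-132780522, was counted 0, 0 and 5 times, and that of exon 5, at chr1:132779054-132779100, was counted 2, 1 and 1 times, again in CD24- libraries alone. The Csf1 read, at chr3:107551703-107551749, was counted 6, 6 and 10 times in CD24- and 18, 28 and 34 times in CD24+ libraries. The Lif read, at chr11:4168294-4168340, was counted 2, 3 and 0 times in CD24- and 1, 3 and 6 times in CD24+ libraries. Single reads of this kind are too few to carry a comparison, and the sums over each gene follow.

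Il24 had 7.79, 8.24 and 42.9 CPM in CD24- replicates 1 to 3 and 0.472, 0.621 and 0.262 CPM in CD24+ replicates 1 to 3. The counts behind these values were 74, 87 and 381 reads against 3, 11 and 5 reads. Every CD24- library lay above every CD24+ library, and CD24- replicate 3 stood far above the other CD24- plates. The exact Poisson 95% intervals, which cover counting error only, ran from 38.7 to 47.5 CPM for CD24- replicate 3 and up to 10.2 CPM for replicate 2, so the plates differed by more than counting error. The group means were 19.7 ± 20.2 CPM and 0.452 ± 0.180 CPM (SD, n = 3 each), and the log2 fold change was -5.43 with a standard error of 0.85. Without CD24- replicate 3 the log2 fold change was -4.15 with a standard error of 0.31. In a bulk culture, fewer cells that make Il24 and less Il24 RNA per cell cannot be told apart.

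**Figure D1:**
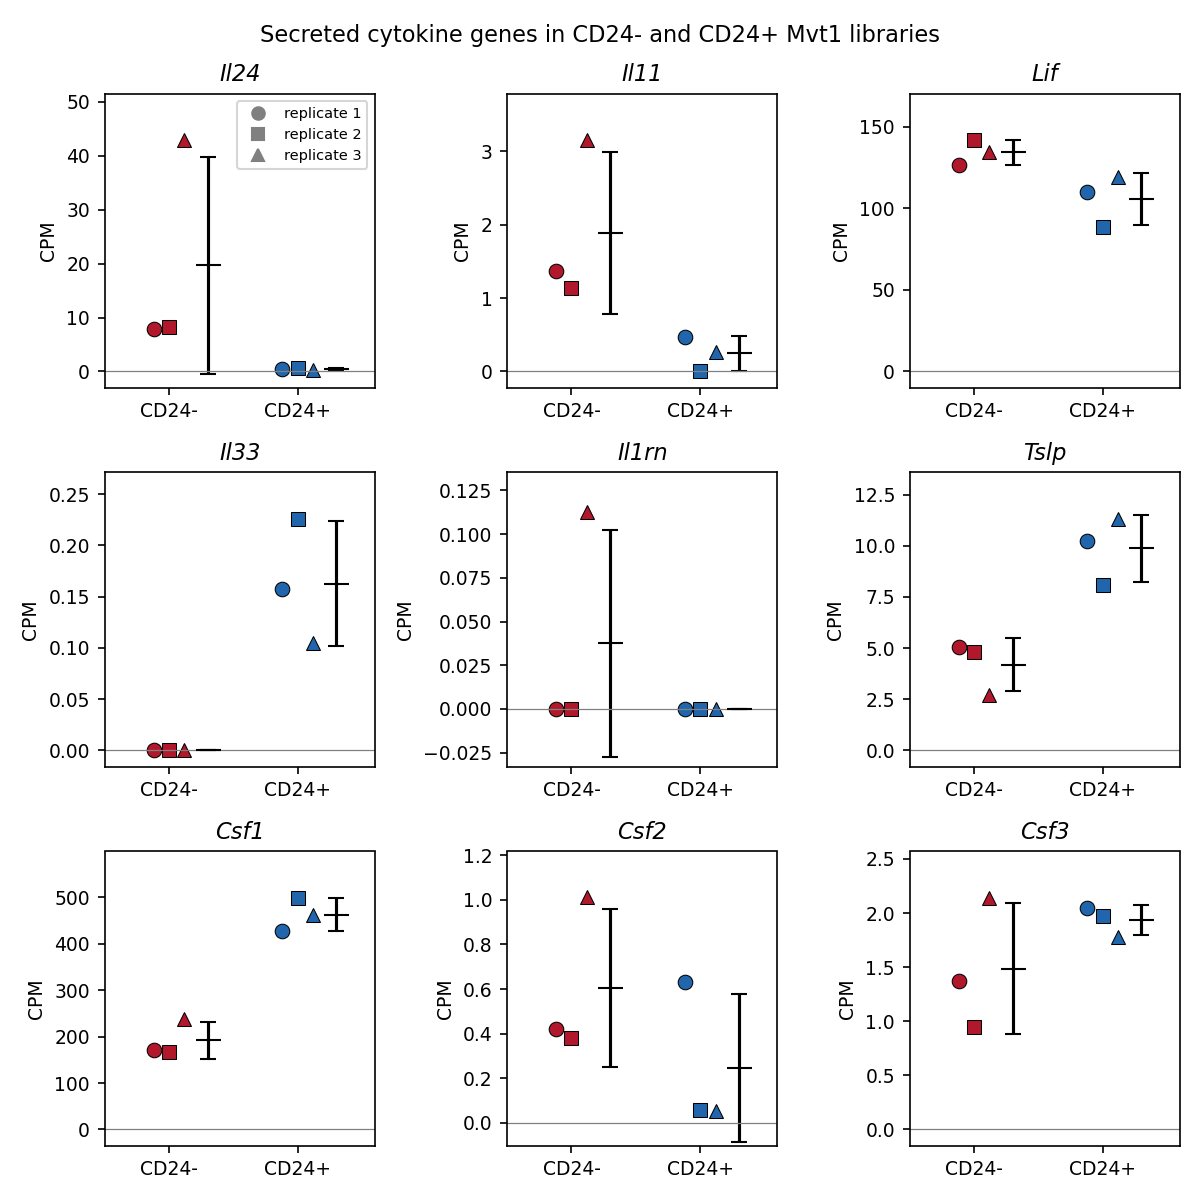
CPM of the 9 cytokine genes with reads in the 3 CD24- (red) and 3 CD24+ (blue) libraries, with the marker shape giving the replicate number and black bars the mean ± SD of a group, on linear axes that differ between panels. Il24 reached 42.9 CPM in CD24- replicate 3 and at most 0.621 CPM in CD24+ libraries, Csf1 and Tslp were higher in every CD24+ library, and the groups overlapped for Csf2 and Csf3.

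The Il24 reads lay within chr1:132778670-132784030 on both strands of the genome, 278 on the plus and 283 on the minus strand, as the library kit keeps no strand. Of 561 reads, 80.7% matched an exon of an Il24 transcript exactly, between 73.0% and 100% per library, and none matched a transcript of another gene. They came from 412 distinct sequences, and no sequence had more than 5 copies in a library, with each strand counted apart. In the longest protein-coding transcript, coding reads numbered 180, reads of the 3′ untranslated part 169 and reads of the 5′ untranslated part 18. Exonic reads that matched only other Il24 transcripts are not among these. All 5 exons of the transcript were covered in CD24- replicates 2 and 3, and exon 4, with 75 bases, had no read in replicate 1. The last exon held 59.5%, 50.8% and 56.0% of the transcript's reads in the CD24- libraries. In CD24+ libraries it held all 3 reads of replicate 1, 5 of 7 reads of replicate 2 and all 4 reads of replicate 3, and the other 2 reads of replicate 2 lay in exon 1. The shares were 55.4% ± 4.38 and 90.5% ± 16.5 (SD, n = 3 each), where the CD24+ shares rest on 3, 7 and 4 reads.

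**Figure D2:**
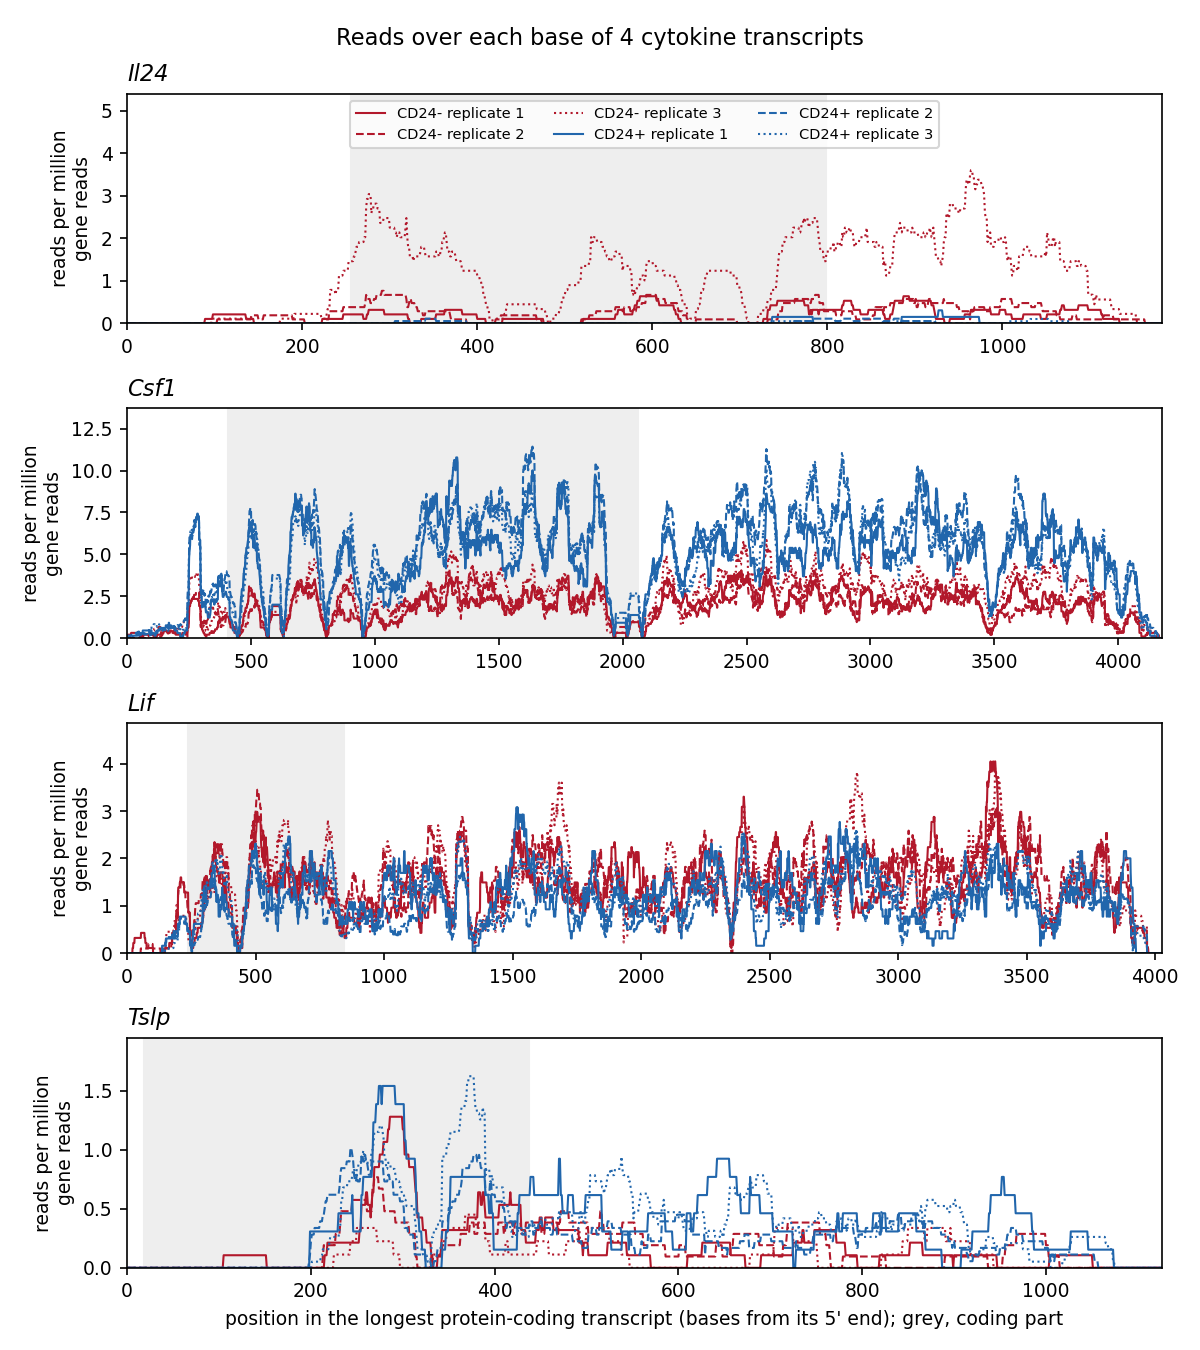
Number of reads over each base of the longest protein-coding transcript, scaled to the gene reads of the library as on the axis, for Il24, Csf1, Lif and Tslp, with one line per library (red CD24-, blue CD24+) and the coding part in grey. Il24 reads of CD24- replicate 3 ran along all 5 exons, Csf1 lines of the CD24+ libraries lay above those of the CD24- libraries along most of the transcript, and the Lif lines intermingled.

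In the IL-6 family, the reads annotated to Il11 were fewer and Lif was slightly lower in CD24+ cells, the Il11 level being uncertain as described with its values, and Il6 had no read. Of the 11125 genes that passed the filter on low counts, 46.1% were called by edgeR at an adjusted p under 0.05 (23.8% higher and 22.3% lower in CD24+), and the CPM ranges of the groups did not overlap for 57.3%. Against that background, 4 of the 9 other members were called, Csf1 and Tslp as higher and Il11 and Lif as lower, 1 was tested and not called and 4 had too few reads for the test. Il11 passed the filter through its CD24- libraries alone, so its place among the tested genes already required that difference and its call carries no weight. Csf3, tested and not called, passed only with its CD24+ libraries, and its test carries no weight either. The groups did not overlap for Il24 and for Il11, Lif, Il33, Tslp and Csf1. Nothing is read from these counts, since the members were chosen on this contrast.

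Il6, the inflammatory founder of its family, had neither an annotated read nor an exact match to its transcripts in any library. Over all 6 libraries a count of 0 allows up to 0.0416 CPM, so Il6 was not detectable at this depth.

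Il11, a cytokine that acts through IL-11RA and gp130, had 1.37, 1.14 and 3.16 CPM in CD24- and 0.472, 0 and 0.262 CPM in CD24+ libraries. These were 13, 12 and 28 reads against 3, 0 and 5 reads, with no overlap and with CD24- replicate 3 again on top. The log2 fold change was -3.23 (SE 0.71) with all libraries, -2.67 without CD24- replicate 3 and -2.50 without CD24+ replicate 2. No CD24+ library reached the 1.01 CPM that the filter asks for in 3 libraries, so these values are a description. All 61 reads were distinct within their library, lay within chr7:4724822-4729410 and were 72.1% exonic. Far more reads matched an exon of an Il11 transcript but carry a repeat annotation in the tables, or none, and are not in these counts. They numbered 118, 88 and 149 in CD24- and 42, 170 and 171 in CD24+ libraries, of which 8, 4 and 27 and then 1, 4 and 4 had no annotation and the rest that of a repeat. Scaled to a common total of gene reads, all these reads together came to 12.6, 8.44 and 16.8 CPM in CD24- and 6.47, 9.57 and 8.95 CPM in CD24+ libraries, with overlap. Which of them came from Il11 and which from other copies of the repeat was not tested, so the level and the fold change of Il11 are uncertain.

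Lif, leukaemia inhibitory factor, signals through LIFR and gp130. It had 127, 142 and 135 CPM in CD24- and 110, 88.4 and 119 CPM in CD24+ libraries, from 701 to 2278 reads each. The groups did not overlap, but CD24+ replicate 3 came close to CD24- replicate 1. The log2 fold change was -0.35 (SE 0.11, edgeR adjusted p = 0.0276). The call was lost without CD24- replicate 2 (log2 fold change -0.31, adjusted p = 0.0915), without CD24+ replicate 2 (-0.23, 0.0634) and when each distinct sequence was counted once (-0.26, 0.0953), all from edgeR.

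The IL-1 family members were close to absent. Il1rn, the secreted antagonist of the IL-1 receptor, had 1 read, in CD24- replicate 3, within its 3′ untranslated part. Another 6, 4 and 2 reads in CD24- and 2, 3 and 9 reads in CD24+ libraries matched its exons but carry another annotation or none, and are not counted. Il33, an alarmin released from damaged cells, had no read in the CD24- libraries and 1, 4 and 2 reads in the CD24+ libraries, all in its exons. Taken over each group, the level in CD24+ cells was 0.162 CPM. A count of 0 allows 0.104 CPM in CD24- cells, with a floor of 3 reads over the group. The ratio, 1.56, leaves out the counting error of the 7 CD24+ reads and is no lower bound on the fold change. In single libraries the exact Poisson intervals reached 0.388, 0.350 and 0.416 CPM in CD24-, above the CD24+ values of 0.157, 0.226 and 0.105 CPM. With 7 reads in all, Il33 was too low for the test.

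Tslp, thymic stromal lymphopoietin, an epithelial cytokine that acts on dendritic and lymphoid cells, was higher in CD24+ cells. It had 5.05, 4.83 and 2.70 CPM in CD24- and 10.2, 8.07 and 11.3 CPM in CD24+ libraries. The lowest CD24+ library lay above the highest CD24- library, and CD24- replicate 3, the highest plate for Il24, was the lowest for Tslp. The log2 fold change was 1.22 (SE 0.24, edgeR adjusted p = 0.00219) with all libraries and 0.99 without CD24- replicate 3. Of its 547 reads, 88.7% were exonic. The last exon held 74.0% ± 11.8 of the transcript's reads in CD24- and 77.0% ± 4.42 in CD24+ libraries (SD, n = 3 each), a difference within the spread between libraries (p = 0.9, two-sided exact permutation test). Exon 2, with 140 bases, held 1 read over all 6 libraries. Exons 1 and 3, with 21 and 36 bases, are shorter than a read of 47 bases, so exact matching could place none there.

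Csf1, the macrophage colony stimulating factor, was the most abundant member in both groups. It had 171, 167 and 238 CPM in CD24- and 427, 499 and 462 CPM in CD24+ libraries, from 1630 to 8837 reads each. Each CD24+ library lay well above each CD24- library. The group means of 192 ± 39.6 and 463 ± 35.8 CPM (SD, n = 3 each) gave a log2 fold change of 1.27 (SE 0.13, edgeR adjusted p = 3.07e-05), and its values with each library left out ran from 1.18 to 1.45. When each distinct sequence was counted once, the log2 fold change was 0.82 (adjusted p = 0.000717, edgeR). Csf1 had up to 41 copies of a sequence in a library, and the cause of the smaller value was not tested.

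Csf1 messenger RNA is known to be spliced into forms that keep or lose a large part of one coding exon, which yields secreted and membrane-bound proteins. That exon, exon 6 of the transcript, with 1016 bases, held 27.4% ± 1.34 of the transcript's reads in CD24- and 28.8% ± 0.0855 in CD24+ libraries (SD, n = 3 each). The CD24- shares ran from 25.8% to 28.2% and the CD24+ shares from 28.7% to 28.9%. The groups did not overlap, the two-sided exact permutation test gave p = 0.1, the smallest p that 3 against 3 libraries allow, and the difference of the means was about the size of the SD in CD24- libraries. The last exon, with 2098 bases, held 57.4% ± 2.08 and 56.0% ± 0.218 (p = 0.4, two-sided exact permutation test). Reads across exon junctions could not be mapped by exact genome match, so splice forms were not counted directly.

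The granulocyte factors were low. Csf3, which drives neutrophil production, had 1.37, 0.948 and 2.14 CPM in CD24- and 2.04, 1.98 and 1.78 CPM in CD24+ libraries, and the groups overlapped. Its log2 fold change of 0.38 (SE 0.32, edgeR adjusted p = 0.350) did not pass the threshold, and it was 0.73 without CD24- replicate 3 (adjusted p = 0.0904, edgeR) and 0.13 without CD24- replicate 2 (0.794). CD24- replicate 2 lay below the 1.01 CPM that the filter asks for in 3 libraries. Csf3 therefore passed only with its CD24+ libraries, and these tests carry no weight. Csf2, which acts on granulocytes and macrophages, had 4, 4 and 9 reads in CD24- and 4, 1 and 1 reads in CD24+ libraries, at most 1.01 CPM, with overlap and too few reads for the test. Its reads were 47.8% exonic, the lowest share among the members.

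Levels of different genes are compared here only per length, as CPM per kilobase of exon positions, without TMM factors. They count reads of the longest protein-coding transcript alone. In CD24- cells the order was Csf1 (48.3 ± 8.58), Lif (31.6 ± 1.37), Il24 (13.5 ± 14.0), Tslp (3.70 ± 1.12), Csf3 (1.05 ± 0.353), Il11 (0.788 ± 0.453) and Csf2 (0.339 ± 0.0273), each as mean ± SD of 3 libraries. Csf1 and Lif were apart beyond their spread, and the 3 Il24 values, from 4.70 to 29.6, lay between those of Tslp and Lif without overlap. Csf3 and Il11 did not differ beyond their spread. In CD24+ cells the order was Csf1 (116 ± 8.51), Lif (24.5 ± 3.44), Tslp (8.27 ± 1.44), Csf3 (1.36 ± 0.175), Il24 (0.373 ± 0.137), Csf2 (0.307 ± 0.380), Il11 (0.100 ± 0.0915) and Il33 (0.0741 ± 0.0278). The Il11 level leaves out the exon-matching reads with a repeat annotation or none, so its place in both orders is uncertain. Il24 ranked behind Lif in CD24- cells and behind Csf3 in CD24+ cells, where its values overlapped those of Csf2, as those of Il11 and Il33 did.

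The members also varied among plates of one group. Between CD24- plates the coefficient of variation of Il24 was 103%, where counting error alone gives 7.44%. The SD of its log2 CPM in CD24- libraries, 1.39, was larger than that of 99.9% of the genes tested, and larger than that of 99.8% of the genes of similar level. The corresponding coefficient of variation was 58.6% for Il11, 30.9% for Tslp, 20.6% for Csf1 and 5.68% for Lif, against counting errors of 23.8%, 15.6%, 2.34% and 2.77%. In CD24+ libraries Il24 varied by 39.9%, as much as the 39.7% that its few reads give by counting.

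CD24- replicate 3 was the highest of the CD24- plates for Il24, Il11, Csf1, Csf2 and Csf3 and the lowest for Tslp and for Cd24a. Over all genes, it was the highest CD24- plate for 38.9% of the genes called lower in CD24+ cells, against 29.3% and 31.8% for replicates 1 and 2. It was the lowest CD24- plate for 45.7% of the genes called higher in CD24+ cells, against 26.3% and 27.8%. Its part in the fold changes was measured by leaving it out, which kept the direction of all 6 members with enough reads for the test.

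**Figure D3:**
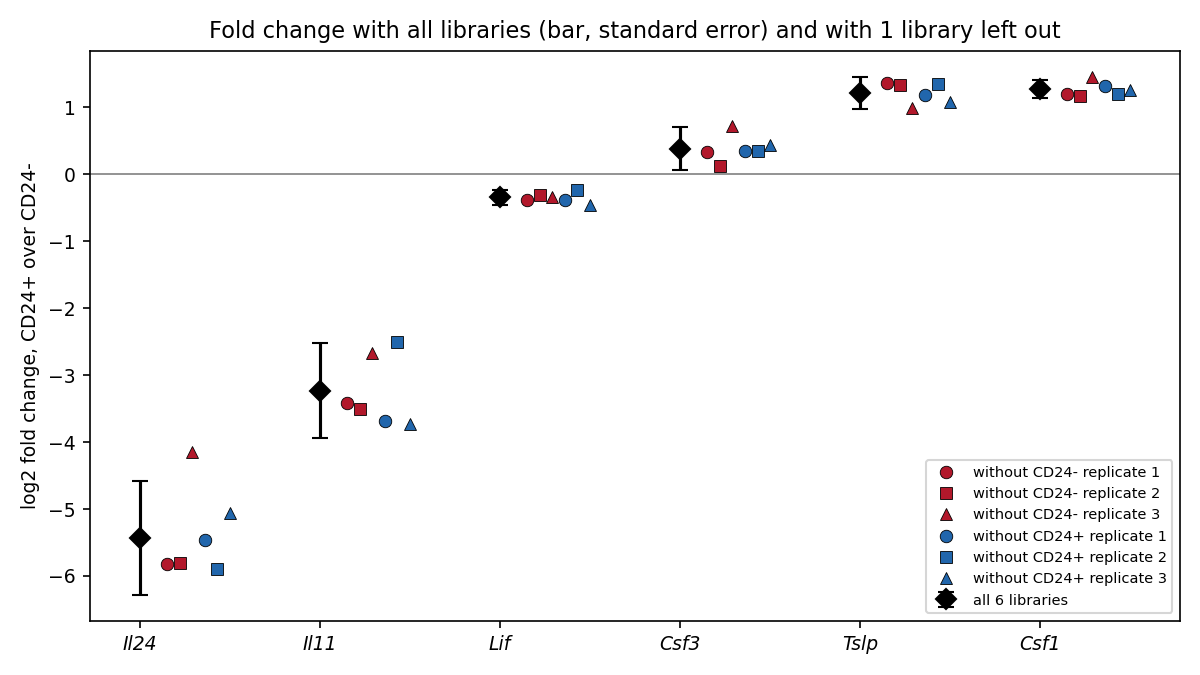
Log2 fold change, CD24+ over CD24-, of the 6 members with enough reads, with all 6 libraries (black diamonds, bars one standard error) and with each library left out in turn (coloured markers). Leaving out CD24- replicate 3 moved Il24 from -5.43 to -4.15, while Csf1 stayed between 1.18 and 1.45 and Lif close to 0.

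The 5 genes nearest to Il24 in pattern were found by the root mean square difference of centred log2 CPM over the 6 libraries. They were Serpinb9b (0.50), a serine protease inhibitor, A030004J04Rik (0.54), Igsf11 (0.59), an adhesion protein of the immunoglobulin superfamily, Fat2 (0.70), an atypical cadherin, and Lor (0.71), loricrin of the cornified layer of the epidermis. Serpinb9b had 84.7, 71.7 and 156 CPM in CD24- and 5.19, 5.36 and 3.61 CPM in CD24+ libraries. Fat2 had 48.9, 48.5 and 107 CPM in CD24- and 5.66, 5.31 and 4.92 CPM in CD24+ libraries. All 5 genes were highest in CD24- replicate 3, as Il24 was, and the likeness over 6 libraries that share this plate is a description alone.

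Il24 lies in a cluster of IL-10 family genes on chromosome 1. Its family neighbour Il19 had 1 read, in CD24+ replicate 3, and Il20 had none. No read was found in Il10 transcripts alone. The 953 reads annotated to Il10 lay within chr1:132920038-132920543 and are not taken as Il10 messenger RNA. They were not called (log2 fold change -0.13, SE 0.14, edgeR adjusted p = 0.481). Within 250 kb of the Il24 reads, Pfkfb2, an enzyme of glycolysis control, had a log2 fold change of -0.65 (edgeR adjusted p = 0.00193), AA986860 of -1.37 (0.00180), Yod1, a deubiquitinase, of -0.55 (0.0295) and Dyrk3, a protein kinase, of -0.35 (0.0266). The Yod1 values of the groups overlapped. The kinase gene Mapkapk2 had a log2 fold change of 0.07 (adjusted p = 0.524, edgeR), and Faim3 and Fcamr had 3 and 1 reads.

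Receptor chains for these cytokines were present for part of the members. Of 22 receptor genes listed, 9 had enough reads, and 6 of these were called, all as higher in CD24+, which is 66.7% beside 46.1% of all genes called and 23.8% called higher. Without CD24- replicate 2, 3 receptor genes were called in place of 6. The median log2 fold change was 0.38 beside 0.02 over all genes tested. Osmr, the oncostatin M receptor chain that pairs with gp130, had 1.26, 1.14 and 1.92 CPM in CD24- and 13.1, 17.6 and 16.2 CPM in CD24+ libraries. All its CD24+ values lay several-fold above the CD24- values (log2 fold change 3.47, SE 0.23, edgeR adjusted p = 1.14e-06). Il6st, the gene of gp130, had 72.5, 75.3 and 79.6 CPM in CD24- and 145, 137 and 139 CPM in CD24+ libraries. Both groups were tight and far apart (log2 fold change 0.89, SE 0.08, edgeR adjusted p = 8.00e-06).

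Among the receptor chains of single members, Il11ra1, the receptor of IL-11, had a log2 fold change of 0.87 (SE 0.17, edgeR adjusted p = 0.00179). Its reads are uncertain, as reads found in its transcripts alone came to 35.3% of the annotated number and near-identical copies exist. Crlf2, the receptor chain of TSLP, had a log2 fold change of 0.63 (SE 0.17, edgeR adjusted p = 0.0123), and its call was lost without CD24- replicate 2 (log2 fold change 0.52, adjusted p = 0.0634). Il10rb and Il1rap were also called higher, with log2 fold changes of 0.38 (adjusted p = 0.0187, edgeR) and 0.32 (0.0413). The call of Il10rb was lost without CD24- replicate 2 (0.33), without CD24+ replicate 3 (0.29) and in libraries thinned to equal gene totals (0.25). That of Il1rap was lost in 7 alternatives, with log2 fold changes from 0.20 to 0.32.

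The chains that bind IL-24 were low. Il20rb had 0.947, 0.853 and 2.37 CPM in CD24- and 1.10, 1.24 and 0.629 CPM in CD24+ libraries, with overlap and no call (log2 fold change -0.50, SE 0.46, edgeR adjusted p = 0.401, and 0.09 without CD24- replicate 3). CD24- replicate 3 was once more the highest library. Il20ra had 1 read, and Il22ra1 had neither an annotated read nor a read found in its transcripts alone. The same held for Lifr, Csf2ra, Csf2rb, Csf2rb2, Csf3r and Il10ra, while Il7r, the partner chain of Crlf2, had 2 exact reads and Csf1r, the receptor of CSF1, had 6 annotated reads in all. Il1rl1, the receptor of IL-33, had 16 reads. Il6ra was steady at 115 to 134 CPM in all libraries and Il1r1 had 42.8 to 66.9 CPM, and neither was called.

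**Figure D4:**
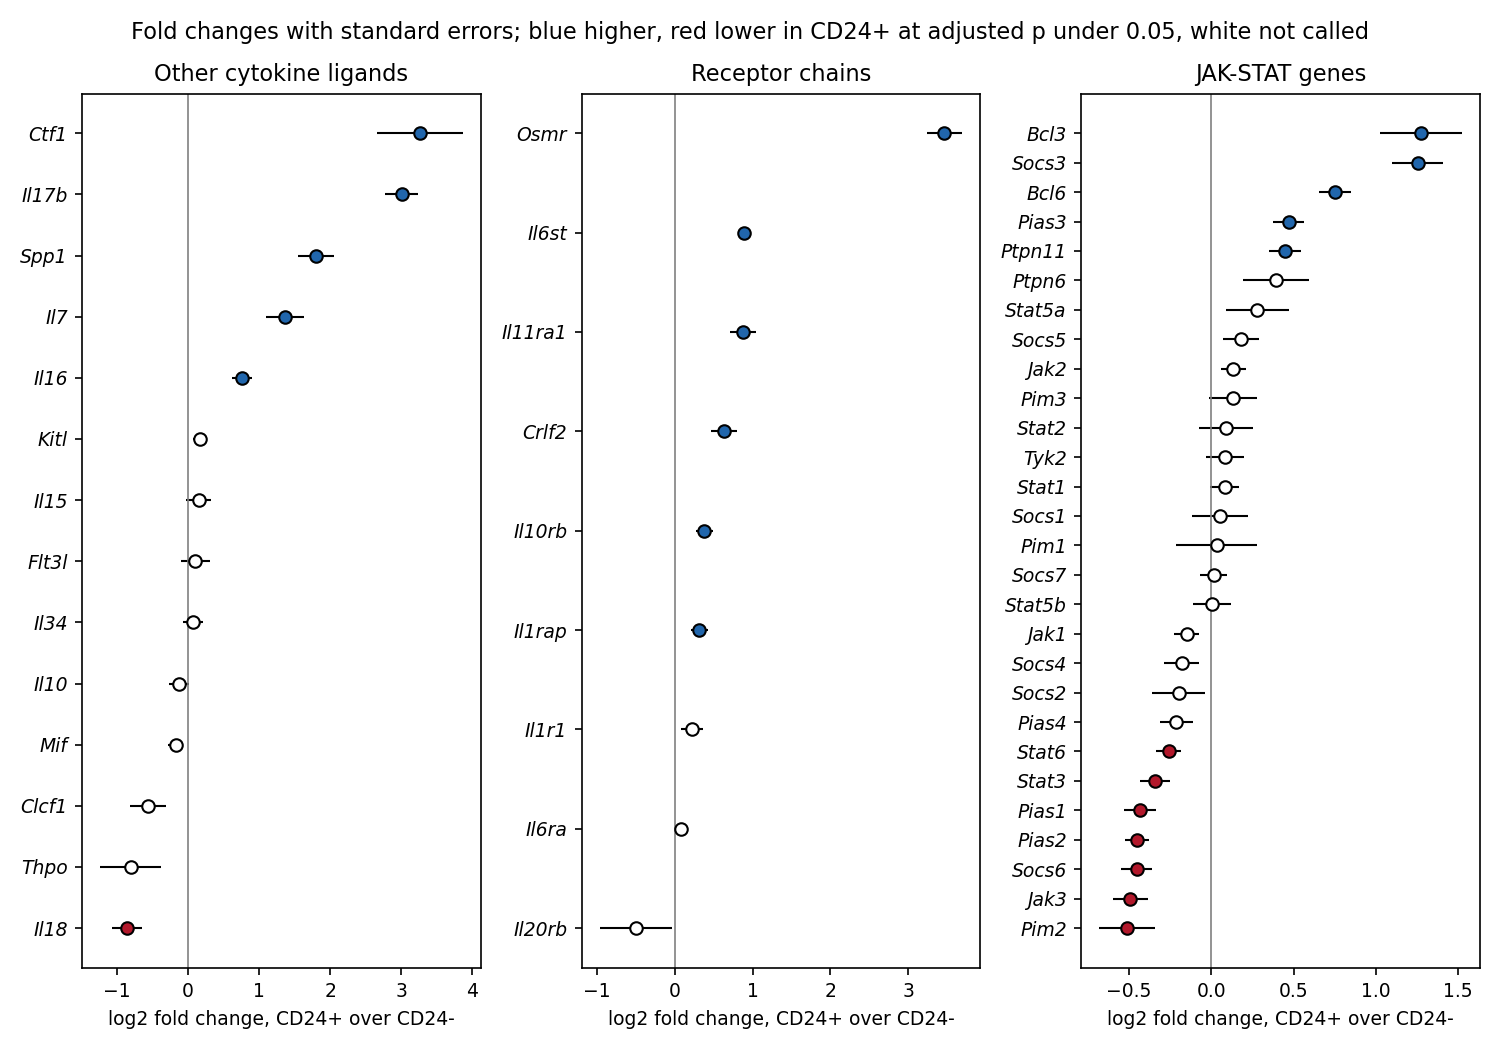
Log2 fold change, CD24+ over CD24-, with standard errors for the tested genes of 3 lists, cytokine ligands outside the member list, receptor chains and JAK-STAT genes (blue called higher, red called lower, white not called by edgeR). All 6 called receptor chains lie to the right of 0, led by Osmr at 3.47, while the JAK-STAT genes lie on both sides.

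Of 30 JAK-STAT genes listed, 28 were tested and 12 called, 5 as higher and 7 as lower, a share of 42.9% beside 46.1% of all genes. The higher genes were led by Bcl3 (log2 fold change 1.27, standard error 0.25), an IκB family co-regulator, and Socs3 (1.25, 0.16), the feedback inhibitor of gp130. Socs3 had 46.3, 40.0 and 32.0 CPM in CD24- and 89.7, 79.4 and 113 CPM in CD24+ libraries, which did not overlap (adjusted p = 0.000104, edgeR with Benjamini-Hochberg adjustment). Bcl6 (0.75), a transcriptional repressor, and Pias3 (0.47), an inhibitor of STAT3, were also called higher. Stat3 itself was called lower, with 142, 149 and 122 CPM in CD24- and 107, 104 and 113 CPM in CD24+ libraries (log2 fold change -0.34, SE 0.09, edgeR adjusted p = 0.0108). The other genes called lower were Jak3 (-0.49), Socs6 (-0.46), Pias2 (-0.45), Pias1 (-0.43), Stat6 (-0.26) and Pim2 (-0.51). With each distinct sequence counted once, 8 JAK-STAT genes were called in place of 12, 4 in each direction, as Ptpn11, the gene of the phosphatase SHP2 (0.27 in place of 0.45), Pias1 (-0.25), Stat6 (-0.23) and Pim2 lost their call. Without CD24- replicate 2 the call of Stat3 was lost (-0.28, edgeR adjusted p = 0.0564), and without CD24- replicate 1 that of Stat6 (-0.27, 0.0575). The call of Pim2 was lost in 5 alternatives, in which its log2 fold change was -0.37 with each distinct sequence counted once, -0.54 with the replicate block and -0.48, -0.44 and -0.56 without CD24- replicate 2, CD24+ replicate 1 and CD24+ replicate 3. The kinase genes Jak1, Jak2 and Tyk2, which serve gp130, were not called, with log2 fold changes of -0.15, 0.13 and 0.08.

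Cytokine messenger RNA is short-lived, and 20 genes of proteins that bind or degrade it were tested of 23 listed. Of these, 2 were called higher and 7 lower, 45.0% of those tested beside 46.1% of all genes (23.8% higher and 22.3% lower), with a median log2 fold change of -0.16 beside 0.02. Zfp36, the gene of tristetraprolin, which destabilizes messages with AU-rich elements, had 158, 163 and 142 CPM in CD24- and 93.4, 73.8 and 118 CPM in CD24+ libraries. All 3 CD24- values lay above the CD24+ values (log2 fold change -0.70, SE 0.15, edgeR adjusted p = 0.00319). Its relatives Zfp36l1 and Zfp36l2 moved the other way, with log2 fold changes of 0.77 (adjusted p = 0.000278) and 0.47 (0.00119) from edgeR. Rc3h1, the gene of roquin, fell by 0.62 on the log2 scale, Khsrp by 0.45 and Exosc10 by 0.31. Dcp1a (-0.31), Tial1 (-0.27) and Cnot8 (-0.23) were also called lower, and each lost its call in at least 3 alternatives. When each distinct sequence was counted once, the calls of Zfp36l2 (log2 fold change 0.23 in place of 0.47) and Exosc10 (-0.21 in place of -0.31) were lost as well. For Zfp36l1, the reads found in its transcripts alone came to 37.9% of the number of annotated reads. Cnot1, Dcp2 and Zc3h12c have no annotation in the tables although reads matched their transcripts, so they were not tested.

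Most other cytokine ligands of these families had too few reads for the test. Of 46 listed, 29 had annotated reads, 17 had neither an annotated read nor a read found in their transcripts alone, and 14 were tested. Of those tested, 6 were called, 5 as higher and 1 as lower in CD24+. That is 42.9% beside 46.1% of all genes (23.8% higher and 22.3% lower), with a median log2 fold change of 0.12 beside 0.02. Il17b, an IL-17 family cytokine, had 1.26, 1.14 and 0.902 CPM in CD24- and 10.4, 8.98 and 7.91 CPM in CD24+ libraries, far apart in every library (log2 fold change 3.01, SE 0.23, edgeR adjusted p = 3.80e-06). CD24- replicate 3 lay below the 1.01 CPM that the filter asks for in 3 libraries. Il17b therefore passed only with its CD24+ libraries, and its call carries no weight. Spp1, osteopontin, a secreted phosphoprotein, had 1001, 1041 and 487 CPM in CD24- and 3261, 2408 and 3150 CPM in CD24+ libraries (log2 fold change 1.80, SE 0.25, edgeR adjusted p = 0.000209), and CD24- replicate 3 was again the plate that stood apart. With each distinct sequence counted once its log2 fold change was 0.49 and not called (edgeR adjusted p = 0.0785), and the cause was not tested. Il7, a lymphocyte growth factor, rose from 1.04 ± 0.0197 to 2.71 ± 0.351 CPM (SD, n = 3 each), with a log2 fold change of 1.37 (adjusted p = 0.00213, edgeR). These levels rest on 10, 11 and 9 reads in CD24- and 18, 41 and 57 reads in CD24+ libraries. In CD24- libraries counting error alone gives 31.6%, far above the 1.90% between plates, and replicate 3 cleared the filter only narrowly.

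Il18, an IL-1 family cytokine, had 32.1, 32.1 and 17.6 CPM in CD24- and 17.1, 13.2 and 15.3 CPM in CD24+ libraries (log2 fold change -0.86, SE 0.21, edgeR adjusted p = 0.00755). CD24- replicate 3 lay close to the CD24+ libraries, and on exact transcript reads alone the log2 fold change was -0.61 (adjusted p = 0.0543). Reads found in Il16 transcripts alone came to 0.354% of the number of annotated reads behind the Il16 call. The call is therefore not taken as a change of Il16 messenger RNA. Clcf1, an IL-6 family ligand, had 55.9, 47.4 and 87.4 CPM in CD24- and 29.3, 57.1 and 40.0 CPM in CD24+ libraries, with overlap and no call (log2 fold change -0.56, adjusted p = 0.0919, edgeR). It was called in 4 alternatives, with -0.74 without CD24- replicate 2, -0.85 without CD24+ replicate 2, -0.59 with the replicate block and -0.56 with no filter on low counts. The ligands of gp130 outside the members were otherwise low, as Osm had no read and Ctf1, called higher with a log2 fold change of 3.27, reached at most 1.68 CPM and passed the filter through its CD24+ libraries alone.

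Markers of other cell types moved between the groups as well, and the counts below stand beside 46.1% of all genes called, 23.8% higher and 22.3% lower. The 15 immune markers summed to 47.1 to 81.1 CPM in CD24- and 7.90 to 10.7 CPM in CD24+ libraries, and 8 of them had reads. Cd68 and Itgam, the 2 with enough reads for the test, were called lower in CD24+ cells. The sum was almost wholly Cd68, a lysosomal protein of macrophages (74.3, 76.1 and 43.4 CPM against 9.44, 6.94 and 8.07 CPM), while the defining genes Adgre1, Cd3e, Cd3g, Ms4a1, Mpo and Tyrobp had no read and Ptprc and Lyz2 had 2 and 3 reads in all. Itgam had 3.27 to 4.45 CPM in CD24- and at most 0.0524 CPM in CD24+ libraries. It had 113 annotated reads, and 39 reads were found in its transcripts alone. Itgam, like the endothelial Cdh5, passed the filter through its CD24- libraries alone. The 9 epithelial markers summed to 1847 to 2041 CPM in CD24- and 760 to 906 CPM in CD24+ libraries, with 3 of 4 tested called lower and 1 higher, and the 4 endothelial markers to at most 3.98 CPM. Of the 2 endothelial markers tested, Cdh5 was called lower (log2 fold change -3.23, edgeR adjusted p = 0.000278). The 7 mesenchymal markers, whose sum is nearly all Vim, summed to 3595 to 4463 CPM in CD24- and 4124 to 4997 CPM in CD24+ libraries, and 5 of 6 tested were called higher. Acta2 and the epithelial Cldn3, also called higher, had at most 0.789 and 0.663 CPM in CD24- libraries, below the filter's 1.01 CPM. Col1a1 and Col1a2 reached it in fewer CD24- libraries than the filter asks for. These genes passed through their CD24+ libraries, so their calls, like those of Itgam and Cdh5, carry no weight. The part of the shift in Cd68, keratin or other markers in the cytokine values was not tested.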

How the data were processed

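Total RNA of 3 plates per sorted group was made into unstranded TruSeq libraries and sequenced. The authors trimmed reads to 47 nt, collapsed identical reads, mapped them by exact match to the mouse genome (mm9 in the submitters' processing notes) and gave each one annotation, and they deposited the counts of each sequence, not normalized and not pooled. The aligner is not given in the sources used here. Exact matching misses junction reads and reads over FVB/N variants.

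Here counts were summed per gene annotation. Reads with no annotation (16.9% to 20.2% of a library) or a repeat or small RNA annotation (8.03% to 10.6%) stayed out of totals and tests. Genes passing filterByExpr were tested with edgeR 4.0.16 (TMM, quasi-likelihood F test, Benjamini-Hochberg adjustment over all genes, threshold 0.05) in R 4.3.3, with group as the only term. The standard error of an edgeR log2 fold change, also that of Il24, is its size divided by the square root of the F statistic. Alternatives used DESeq2 1.42.0, limma 3.58.1 on log2(CPM + 10), other filters, no TMM, distinct sequences, libraries thinned to equal gene totals, exonic reads, a replicate block, a fold minimum and each library left out. Reads were matched to GENCODE M21 transcripts by exact sequence for exons and levels per length. For list and marker genes, exact reads are those found in transcripts of that gene alone, under any gene annotation or none. Reads shared with transcripts of another gene, or annotated to a repeat, are left out of them. Exon shares were compared by exact permutation tests. On simulated counts of 11125 genes, edgeR recovered 99% of 100 genes changed 2-fold and 100% of 100 changed 4-fold and called 0.129% of unchanged genes. The changed genes were drawn above a minimum level that Il11 and Csf3 did not reach, and all genes were given the same dispersion. The recovery therefore does not extend to low genes or to genes that varied more among plates, such as Il24.

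The members and gene lists were chosen with earlier results of these data known. Named were all members, Cd24a, up to 4 called genes in each direction per list with at least 1 CPM on average, the 5 genes nearest to Il24 in pattern and genes within 250 kb of it, other genes named having been picked after their values were seen. Intervals are exact Poisson intervals.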

Additional observations from a re-analysis of the deposited data

How the results depend on the processing

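No member changed direction under any alternative in which it could be fitted, and of 197 values under alternatives, 186 kept their direction and call, or stayed within the spread or 1.5 times of the main value. The filter of 1 CPM in 3 libraries kept the same 11125 genes as the main filter. Its values, counted among the 186, equal the main ones and are no separate check. With log2(CPM + 10) and limma, the Il24 log2 fold change was -1.30, as the added constant exceeds the Il24 level in 5 of 6 libraries. The study's methods add a constant of the same size, but to another quantity than CPM. With each library left out, it ran from -5.89 to -4.15, the latter without CD24- replicate 3, and that of Cd24a from 2.71 to 3.05.

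With a minimum log2 fold change of 1, 1600 genes were called (1003 higher, 597 lower) in place of 5130, with 1 receptor, 2 JAK-STAT and 0 turnover genes among them. When each distinct sequence was counted once, 5 turnover genes were called in place of 9, and the cause was not tested. With each library left out, calls ran from 4069 to 5358 over all genes, 3 to 4 for members, 6 to 7 for ligands, 3 to 6 for receptors (3 without CD24- replicate 2), 10 to 13 for JAK-STAT and 6 to 9 for turnover genes. On exact transcript reads, chosen after seeing the data, 4 ligands were called. Il11 had too few reads for the test in libraries thinned to equal gene totals or with exonic reads alone.

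The replicate numbers did not pair the libraries: same-numbered libraries correlated at 0.0143, -0.251 and -0.310 in their deviations from the group means. Across the groups, libraries of different number correlated at -0.202 to 0.303, the highest being CD24- replicate 3 with CD24+ replicate 2. A fit with the replicate number as a block called 4493 genes and gave -5.37 for Il24. It changed no call of a member and called 7 ligands, 5 receptors, 11 JAK-STAT and 8 turnover genes. Depth limits Il6, Il1rn, Il33 and Csf2, which have too few reads for a test.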
